A study of Mus musculus with 6 samples.

Results

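The p53 targets and GADD45 genes described here are 10 stress response genes taken by name from the transcriptome of HL-1 cells, and all 10 were found among the 32739 genes of the deposited tables. They comprise the p53 targets Cdkn1a, Mdm2, Ccng1, Aen, Zmat3, Sesn1 and Sesn2 and the family members Gadd45a, Gadd45b and Gadd45g. HL-1 is an established mouse line of atrial cardiomyocytes. Hypoxia for 6 h and then reoxygenation for 1 h was applied to all cells, controls included. The tested cells received 5 µM BRL37344 (BRL in the following), which the series describes as a β3-adrenergic agonist, in the culture medium, and the controls received vehicle. Each group had 3 libraries of total RNA. The sources used here do not say when BRL was added or whether the libraries came from separate cultures, so p-values reflect only the variation among these libraries, which could be technical.

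The transcription factor p53 is stabilised after DNA damage, hypoxia and other stress and switches on genes that halt the cell cycle, repair DNA, restrain growth or start apoptosis. Mdm2, itself a target, marks p53 for degradation and closes a feedback loop. The GADD45 proteins are small acidic stress sensors that bind the kinase MAP3K4, the clamp PCNA and the cyclin B kinase CDK1. Of this family Gadd45a is a classical p53 target, while Gadd45b and Gadd45g answer mostly to cytokine and other stress signals. HL-1 cells descend from an atrial tumour lineage of mice that carried the large T antigen of SV40, a protein known to bind and inactivate p53, which limits the line as a model of p53 signalling.

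Total expected counts ranged from 6812810 to 8332472 in the BRL libraries and from 4440168 to 5060049 in the vehicle libraries, and the BRL libraries were all deeper. BRL replicate 1 stood apart: mitochondrially encoded transcripts took 5.03% of its counts, against 16.5% to 21.9% in the other 5 libraries. The cardiomyocyte markers were all detected, at a summed 4010 to 5533 CPM in BRL and 7018 to 7789 CPM in vehicle (CPM, counts scaled to the library total and corrected by TMM factors). Summed markers of fibroblasts, endothelium and leukocytes each stayed under 7 CPM in every library, with Dcn, Lum, Emcn, Ptprc, Csf1r and Adgre1 at 0 counts. The smooth muscle markers summed to 1613, 2881 and 3155 CPM in BRL replicates 1, 2 and 3 and to between 3582 and 4000 CPM in vehicle. Fewer cells of a type and less RNA per cell cannot be told apart in such bulk libraries, and the part of the marker differences in the results below was not tested.

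Within the GADD45 family, Gadd45a rose with BRL and Gadd45g was lower in every BRL library without passing the test. Gadd45a, at 2.09 times its vehicle level, was the only member of the 10 to pass at an adjusted p under 0.05 (edgeR quasi-likelihood F-test, Benjamini-Hochberg adjustment over 12047 genes). Of all genes tested, 1.01% rose and 1.79% fell by the same rule, and none of the 10 members fell. The median log2 fold change was 0.02 over the members and 0.005 over all genes tested.

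Gadd45a measured 33.2, 57.4 and 49.4 CPM in BRL replicates 1, 2 and 3, against 25.1, 19.5 and 22.5 CPM in vehicle replicates 1, 2 and 3. Every BRL library lay above every vehicle library, and BRL replicate 1 was the lowest of its group. The group means were 46.7 ± 12.3 CPM in BRL and 22.4 ± 2.80 CPM in vehicle (SD, n = 3 each). The log2 fold change was 1.06 ± 0.21 (SE, edgeR adjusted p = 0.0385). Without BRL replicate 1 it was 1.26 with adjusted p = 9.89e-06. The call was lost without BRL replicate 2 or 3 (adjusted p of 0.0902 and 0.0812), without vehicle replicate 1, 2 or 3 (0.124, 0.197 and 0.191) and under limma-voom (0.0587), with log2 fold changes from 0.89 to 1.16. With mitochondrially encoded genes left out its adjusted p was 0.0345, and with all libraries thinned to equal depth 0.0399. Its expected counts were not whole numbers in the 6 libraries. In a GENCODE annotation of another build than that of the counts, its exons overlap those of the antisense gene E230016M11Rik. That gene had at most 8.63 counts in any library.

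Gadd45g measured 16.0, 36.2 and 26.5 CPM in the BRL libraries, against 51.8, 43.4 and 49.7 CPM in the vehicle libraries. The groups did not overlap, but the BRL libraries spread more than the vehicle libraries. With a log2 fold change of −0.88 ± 0.25 it did not pass (edgeR adjusted p = 0.0958). It passed without BRL replicate 1, where the log2 fold change was −0.63 with adjusted p = 0.00401, and DESeq2 called it on all 6 libraries (adjusted p = 0.0164). Gadd45b, the least abundant of the family, measured 11.1, 10.98 and 8.55 CPM in the BRL libraries and 11.4, 11.96 and 9.93 CPM in the vehicle libraries. These ranges overlapped, and the log2 fold change of −0.12 ± 0.18 did not pass (adjusted p = 0.736).

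Levels per length were taken from the RSEM fraction of transcripts and given as TPM. On this scale the shares of the family's genes differed between the groups in these libraries, while the ranges of the family's sum overlapped. Unlike the CPM, the TPM carry no TMM correction. The TMM factor was 1.111 in BRL replicate 1 and 0.947 to 1.007 in the other libraries. TPM sums and levels are thus less comparable between libraries, while shares within a library do not depend on that factor. The 3 genes together measured 108, 131 and 113 TPM in the BRL libraries and 133, 106 and 116 TPM in the vehicle libraries. Gadd45a made up 53.1%, 52.3% and 56.5% of this sum in BRL replicates 1, 2 and 3, against 26.3%, 25.0% and 25.3% in vehicle replicates 1, 2 and 3. Gadd45g made up 29.8%, 38.2% and 34.3% in the BRL libraries and 62.4%, 61.1% and 64.1% in the vehicle libraries. Gadd45a was thus the leading transcript of the family in each BRL library, and Gadd45g in each vehicle library. The share of Gadd45a differed by 28.5 percentage points between BRL and vehicle and that of Gadd45g by −28.4 points. In an exact two-sided permutation test each gave p = 0.1, which is the smallest p that 3 against 3 libraries allow. Shares within a library add up to the whole, so these differences and the ratio given next are not separate results. BRL replicate 1 did not stand apart in the share of Gadd45a, and the ratio of Gadd45a to Gadd45g was 1.78, 1.37 and 1.65 in the BRL libraries and 0.422, 0.409 and 0.395 in the vehicle libraries. The share of Gadd45b was 17.2%, 9.51% and 9.17% in the BRL libraries and 11.4%, 13.9% and 10.7% in the vehicle libraries, with overlap.

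**Figure D1:**
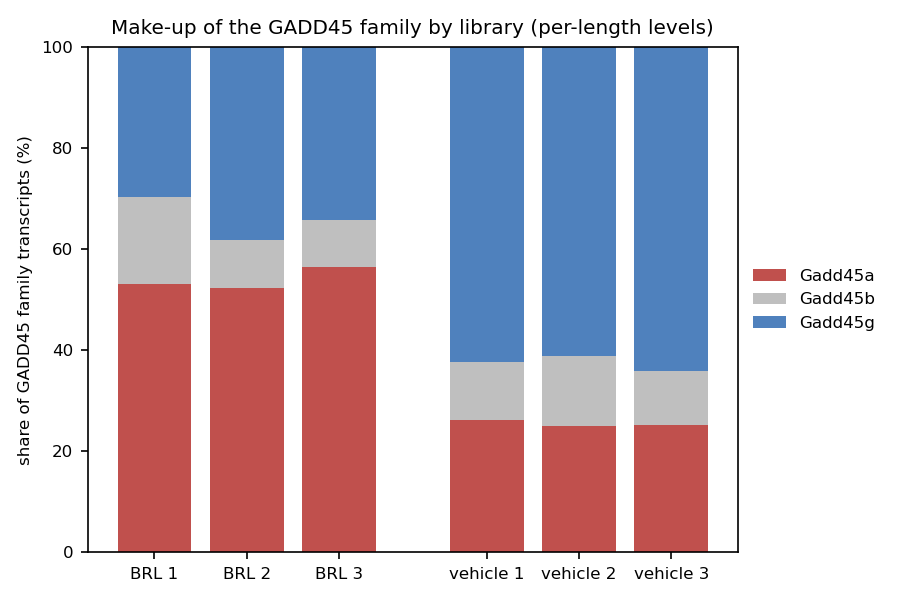
Share of Gadd45a, Gadd45b and Gadd45g in the summed per-length level of the family (vertical axis, percent) in each BRL library (left) and vehicle library (right). Gadd45a takes 52.3% to 56.5% of each BRL bar and 25.0% to 26.3% of each vehicle bar, and Gadd45g takes 29.8% to 38.2% and 61.1% to 64.1%.

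Of the family, edgeR called Gadd45a alone on all libraries, while DESeq2 also called Gadd45g, with the opposite sign. A link between promoter letters and fold changes was not tested. The promoters of the 3 family members are shown, together with an upstream promoter of Cdkn1a that holds a p53 element. They are the 250 bases before the annotated start from RefSeq, build GRCm38.p6, in the direction of the gene, at chr6:67037408-67037657 (minus strand) for Gadd45a, chr10:80929841-80930090 (plus strand) for Gadd45b, chr13:51846425-51846674 (plus strand) for Gadd45g and chr17:29090729-29090978 (plus strand) for Cdkn1a. Capitals mark CCAAT boxes and, as the runs of 10 letters, matches to the p53 decamer consensus.
Gadd45a: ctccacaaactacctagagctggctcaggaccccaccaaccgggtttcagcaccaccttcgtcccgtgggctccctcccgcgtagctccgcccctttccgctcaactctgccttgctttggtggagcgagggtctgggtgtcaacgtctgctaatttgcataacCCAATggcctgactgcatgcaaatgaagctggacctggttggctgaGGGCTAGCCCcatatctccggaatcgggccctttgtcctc
Gadd45b: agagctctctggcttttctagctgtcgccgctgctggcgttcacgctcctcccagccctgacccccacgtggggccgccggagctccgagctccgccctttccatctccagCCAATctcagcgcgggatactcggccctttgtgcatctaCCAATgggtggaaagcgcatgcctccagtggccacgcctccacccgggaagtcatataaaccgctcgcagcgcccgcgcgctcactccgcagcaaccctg
Gadd45g: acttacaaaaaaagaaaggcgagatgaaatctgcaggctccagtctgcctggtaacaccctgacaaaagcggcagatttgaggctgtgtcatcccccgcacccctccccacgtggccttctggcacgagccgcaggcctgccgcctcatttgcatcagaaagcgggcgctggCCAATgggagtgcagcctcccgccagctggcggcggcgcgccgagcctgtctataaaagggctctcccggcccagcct
Cdkn1a: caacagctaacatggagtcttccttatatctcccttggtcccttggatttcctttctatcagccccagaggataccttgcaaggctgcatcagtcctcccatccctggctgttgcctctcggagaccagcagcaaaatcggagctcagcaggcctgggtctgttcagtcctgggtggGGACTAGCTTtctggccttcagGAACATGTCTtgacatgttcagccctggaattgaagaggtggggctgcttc

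Motifs were searched on both strands of the full windows, 250 bases before to 50 after the start, in 12 windows of the 9 members that matched, and in all 32851 windows of the table. A p53 decamer was found in 7 of the 12 windows, which belong to 6 members, and in 8.36% of all windows. The 2 windows of Aen overlap and hold the same decamer. Most members were named because they are p53 targets, so a larger share than over all windows can follow from that choice. Sites outside these windows were not searched. The Gadd45a promoter held 1 decamer, 40 bases before the start, and those of Gadd45b, Gadd45g and Sesn2 held none. The upstream Cdkn1a promoter, whose start lies 2790 bases before the other annotated start, held 2 decamers with 12 bases between them. The search took 2 decamers 0 to 13 bases apart as a full p53 element, and 0.07% of all windows held such a pair. The letters tgacatgttc, directly after the second decamer, miss the consensus in their first base only. The search allowed no mismatch and left them unmarked, and which letters form the element was not tested. The decamers of the other members, also RefSeq GRCm38.p6, are given with 10 bases on either side to show how far they differ.
Ccng1: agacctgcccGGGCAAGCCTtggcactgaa
Mdm2: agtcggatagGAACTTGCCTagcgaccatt
Aen: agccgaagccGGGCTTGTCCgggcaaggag
Sesn1: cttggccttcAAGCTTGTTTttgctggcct
The cyclic AMP response element TGACGTCA was found in none of the 12 windows and in 1.79% of all windows. Its core TGACG, which that element contains, was found in windows of 2 members, Mdm2 and Sesn1, and in 20.8% of all windows. The CCAAT letters were found in windows of 8 of the 9 members and in 37.4% of all windows. The TGACG and CCAAT counts are of members, some of which have 2 windows, while the shares are of single windows. A match is a description of the letters, and was not tested for binding.

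The genes that check the cell cycle and p53 itself, Cdkn1a, Ccng1 and Mdm2, were the most abundant members. As mean levels per length they measured 339 ± 64.4, 131 ± 34.9 and 138 ± 24.2 TPM in BRL and 302 ± 29.0, 156 ± 12.5 and 121 ± 14.5 TPM in vehicle (SD, n = 3 each). In BRL the order ran on through Gadd45a, Aen, Gadd45g, Sesn2, Zmat3 and Gadd45b to Sesn1. In vehicle it ran on through Gadd45g, Aen, Sesn2, Gadd45a, Zmat3 and Gadd45b to Sesn1. Gadd45a thus ranked 4 of the 10 in BRL and 7 in vehicle. In BRL the libraries of neighbours overlapped between Mdm2 and Ccng1, among Gadd45a, Aen, Gadd45g and Sesn2 in turn, and between Zmat3 and Gadd45b. In vehicle they overlapped between Aen and Sesn2 and between Sesn2 and Gadd45a.

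Cdkn1a, which encodes the CDK inhibitor p21 that arrests the cell cycle, measured 247, 519 and 431 CPM in BRL replicates 1, 2 and 3, against 383, 343 and 347 CPM in vehicle replicates 1, 2 and 3. BRL replicate 1 lay below every vehicle library and BRL replicates 2 and 3 above every vehicle library. The log2 fold change of 0.16 ± 0.23 did not pass (edgeR adjusted p = 0.736). Without BRL replicate 1 Cdkn1a passed, with a log2 fold change of 0.41 ± 0.08 and adjusted p = 0.00388, and without BRL replicate 2 it was −0.08.

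Mdm2, the ubiquitin ligase of p53, split in the same manner. It measured 134, 234 and 207 CPM in the BRL libraries and 183, 155 and 174 CPM in the vehicle libraries. The log2 fold change was 0.17 ± 0.19 on all 6 libraries (edgeR adjusted p = 0.649) and 0.37 ± 0.08 without BRL replicate 1 (adjusted p = 0.00647). Ccng1, which encodes cyclin G1, a regulator of Mdm2, measured 157, 392 and 348 CPM in the BRL libraries and 347, 333 and 357 CPM in the vehicle libraries. BRL replicate 1 lay below the vehicle libraries, BRL replicate 2 above them and BRL replicate 3 among them. Its log2 fold change was −0.21 ± 0.28 (adjusted p = 0.706) and, without BRL replicate 1, 0.10 ± 0.07 (adjusted p = 0.325).

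Among the effectors, Aen, an exonuclease induced by p53 during apoptosis, was higher in every BRL library. It measured 79.8, 93.6 and 70.5 CPM in the BRL libraries and 65.0, 57.1 and 57.8 CPM in the vehicle libraries. The log2 fold change of 0.44 ± 0.13 did not pass (edgeR adjusted p = 0.1), and without BRL replicate 1 it was 0.46 ± 0.11 and passed (adjusted p = 0.0131). Zmat3, a zinc finger RNA-binding protein, measured 52.7, 84.04 and 83.9 CPM in the BRL libraries and 89.02, 84.96 and 86.4 CPM in the vehicle libraries. All BRL libraries lay below the vehicle libraries, with BRL replicates 2 and 3 close to the lowest of them, and the log2 fold change of −0.24 ± 0.17 did not pass (adjusted p = 0.453). It was −0.04 without BRL replicate 1 (adjusted p = 0.733). The expected counts of Zmat3 in all libraries and of Mdm2 in 4 were not whole.

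The sestrins, stress-induced proteins that restrain mTORC1 when leucine is short, had fold changes of opposite sign. Sesn2 measured 72.7, 109 and 76.7 CPM in the BRL libraries and 71.98, 69.02 and 69.1 CPM in the vehicle libraries. The groups did not overlap, although BRL replicate 1 lay within 1 CPM of the highest vehicle library. Sesn2 had a log2 fold change of 0.30 ± 0.16 (edgeR adjusted p = 0.302) and passed without BRL replicate 1 (0.41 ± 0.12, adjusted p = 0.0292). Without BRL replicate 2 it was 0.09 (adjusted p = 0.632). Sesn1 measured 12.2, 13.8 and 14.4 CPM in the BRL libraries and 16.8, 18.5 and 21.1 CPM in the vehicle libraries. The groups did not overlap, and the log2 fold change of −0.48 ± 0.15 did not pass with BRL replicate 1 (adjusted p = 0.114) or without it (−0.41 ± 0.15, adjusted p = 0.0628).

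**Figure D2:**
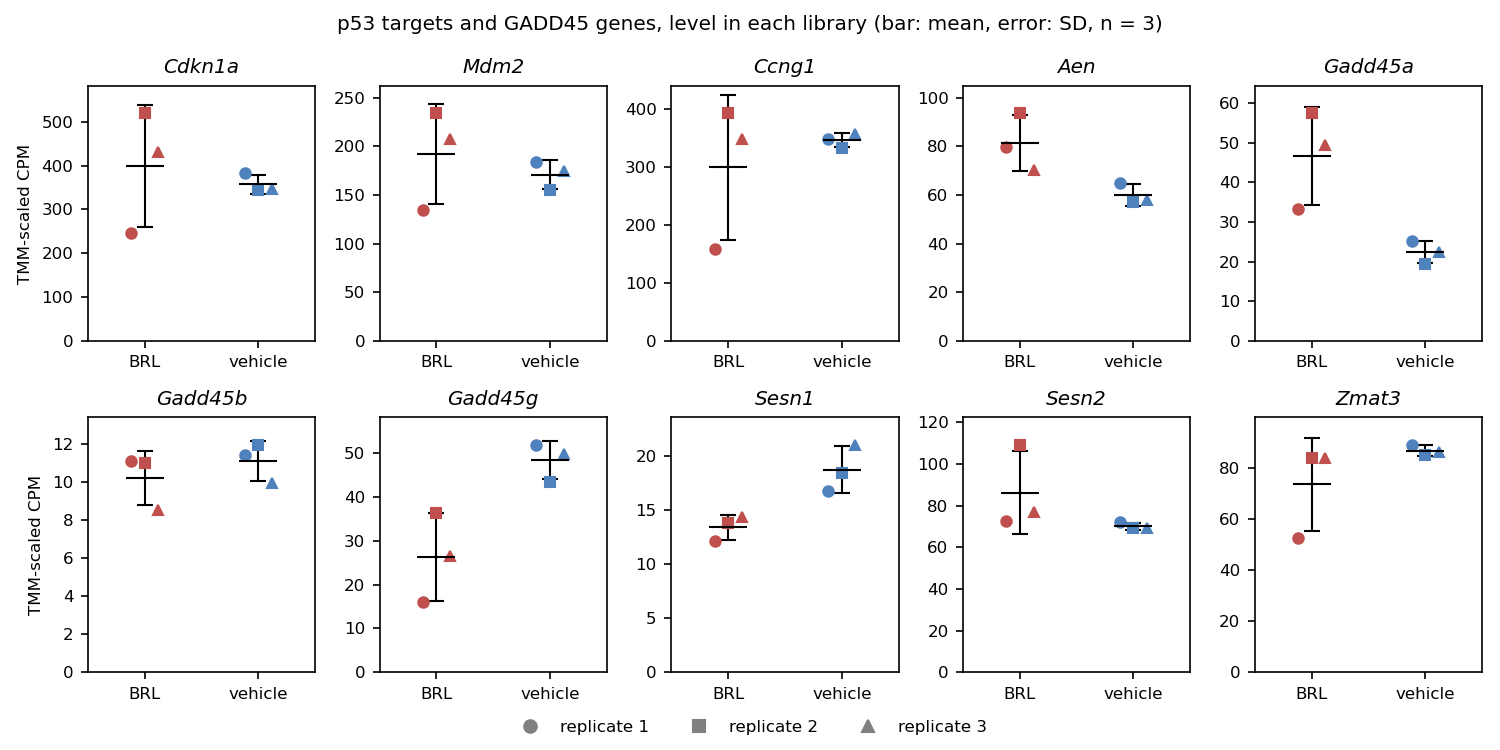
Level of each of the 10 genes (vertical axis, TMM-scaled CPM) in BRL (left) and vehicle (right), with a marker per replicate, the mean as a bar and the SD as the error. Gadd45a lies above and Gadd45g below vehicle in all BRL libraries, while BRL replicate 1 is far below BRL replicates 2 and 3 for Cdkn1a, Mdm2 and Ccng1.

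In all, 3 members (Aen, Gadd45a and Sesn2) had every BRL library above every vehicle library, as did 16% of all genes tested. Another 3 (Gadd45g, Sesn1 and Zmat3) had every BRL library below, as did 15.5% of all genes. BRL replicate 1 lay below both other BRL libraries in 8 of the 10 members, where 45.1% of all genes tested did so. Its log2 difference from the mean of BRL replicates 2 and 3 was −1.23 for Ccng1, −0.95 for Gadd45g, −0.94 for Cdkn1a, −0.71 for Mdm2, −0.68 for Gadd45a and −0.67 for Zmat3, against a median of −0.03 over all genes. Aen, Gadd45b, Sesn1 and Sesn2 had differences between −0.35 and 0.18. Without BRL replicate 1, 5 members rose (Cdkn1a, Mdm2, Aen, Gadd45a and Sesn2) and 1 fell (Gadd45g), while in the same fit 10.3% of all genes rose and 10.9% fell. With any other single library left out, edgeR called none of the 10.

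**Figure D3:**
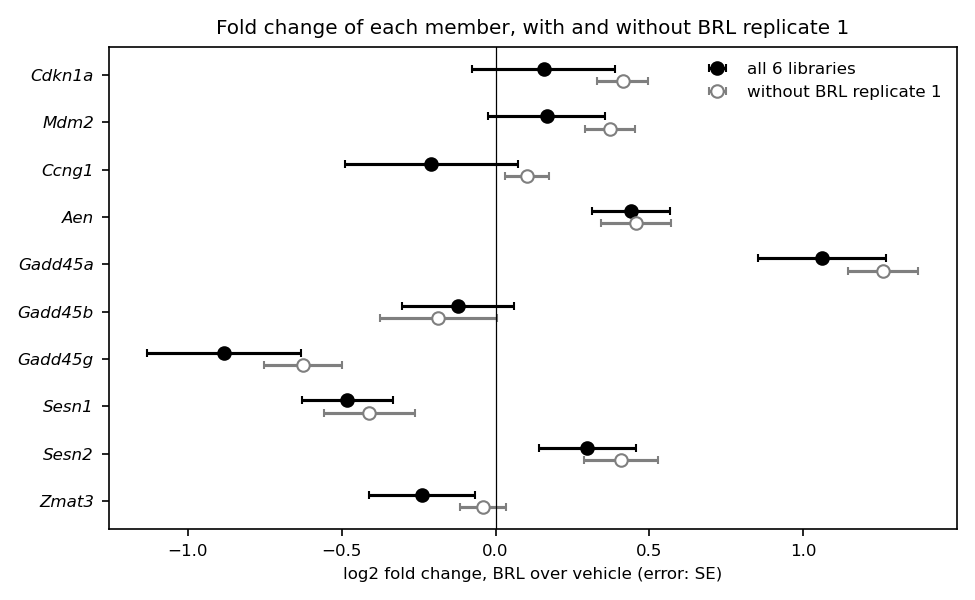
Log2 fold change of BRL over vehicle (horizontal axis, error bars SE) for each of the 10 genes, from all 6 libraries (filled) and without BRL replicate 1 (open). Gadd45a is at 1.06 and 1.26 and Gadd45g at −0.88 and −0.63, and Ccng1 changes sign from −0.21 to 0.10.

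The genes whose profile over the 6 libraries came nearest to that of Gadd45a were Sgk1, Prss23 and Klf4. Their root mean square differences from its centred log2 CPM were 0.06, 0.06 and 0.12, where the median over 10637 genes of at least 5 CPM was 0.59. Because these genes were picked for a profile like that of Gadd45a, higher values in BRL follow from the choice. Prss23, a serine protease, rose (edgeR adjusted p = 0.0211), and Sgk1 and Klf4 did not pass (adjusted p of 0.0827 and 0.0505). Without BRL replicate 1, Prss23, Sgk1 and Klf4 all passed, as Gadd45a did (edgeR adjusted p of 1.64e-06, 0.000712 and 0.000104). Sgk1, a kinase of the glucocorticoid and stress response, had 8.07, 15.6 and 13.1 CPM in the BRL libraries and 6.95, 5.04 and 5.68 CPM in the vehicle libraries. Klf4, a zinc finger transcription factor, had 22.4, 36.6 and 31.9 CPM in the BRL libraries and 18.6, 14.5 and 13.2 CPM in the vehicle libraries.

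Of 38 other p53 targets, 32 passed the filter on low counts, and edgeR called none on all 6 libraries, as did DESeq2 and limma-voom. An unadjusted p under 0.05 was found for 4 of them, which is 12.5% where 22.4% of all genes had one. The smallest were those of Tigar, a regulator of glycolysis, Ddit4, an inhibitor of mTORC1, and Bax, a pore-forming apoptosis effector. Tigar measured 20.9, 18.4 and 21.02 CPM in the BRL libraries and 14.6, 14.9 and 14.6 CPM in the vehicle libraries (log2 fold change 0.45 ± 0.13, edgeR adjusted p = 0.0969). Bax measured 61.9, 93.9 and 72.8 CPM in the BRL libraries and 59.4, 54.1 and 55.7 CPM in the vehicle libraries (0.43 ± 0.15, adjusted p = 0.152). Ddit4 had 0.63 ± 0.21 (adjusted p = 0.127).

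Without BRL replicate 1, 10 of the 32 rose and none fell, where 10.3% of all genes rose and 10.9% fell in that fit. They were Bax, Sulf2, Ddit4, Btg2, Gtse1, Pidd1, Tap1, Tigar, Gdf15 and Phlda3, with log2 fold changes from 0.25 to 0.88. The list's median log2 fold change was 0.17 in that fit, against 0.003 over all genes, and 0.03 on all 6 libraries. With any other single library left out, edgeR called none of the 32. Btg2, Gdf15 and Phlda3 were chosen for description after their values were seen. Btg2, an antiproliferative gene, had 142, 649.5 and 494.5 CPM in the BRL libraries and 385, 335 and 344 CPM in the vehicle libraries. Gdf15, a stress cytokine, had 45.5, 188.5 and 121 CPM in BRL and 104, 75.7 and 72.8 CPM in vehicle. In these genes, as in Cdkn1a, BRL replicate 1 was below and BRL replicates 2 and 3 were above all vehicle libraries, and Phlda3 had the same order.

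**Figure D4:**
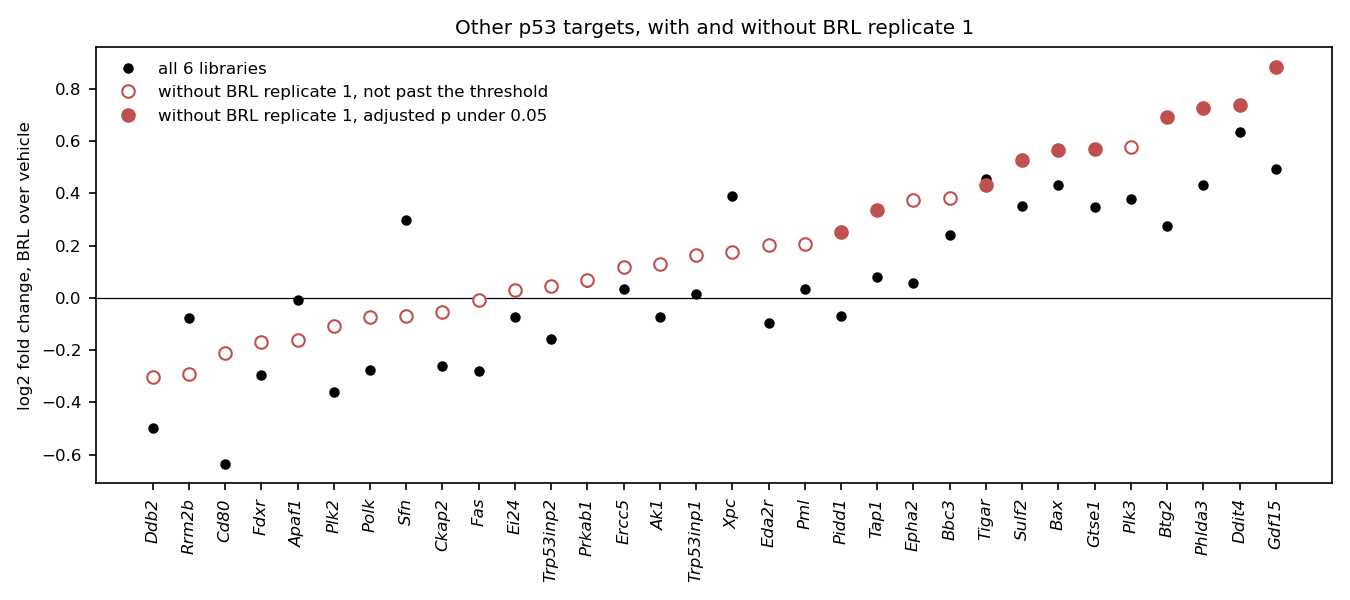
Log2 fold change of BRL over vehicle (vertical axis) for the 32 other p53 targets tested, ordered by their value without BRL replicate 1, from all 6 libraries (black) and without that library (red, filled where the edgeR adjusted p was under 0.05). The 10 filled points lie between 0.25 and 0.88.

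Among 21 tested genes that set the level or activity of p53, Sirt1 rose and none fell on all 6 libraries. Sirt1, a deacetylase with p53 among its substrates, measured 184, 149.9 and 154 CPM in the BRL libraries and 96.2, 101 and 86.4 CPM in the vehicle libraries (log2 fold change 0.78 ± 0.12, edgeR adjusted p = 0.0129). It was called with and without BRL replicate 1, but not without any of the 3 vehicle libraries, where this list had 0 calls. Trp53, the p53 gene, measured 111, 105 and 98.97 CPM in BRL and 91.7, 85.8 and 81.1 CPM in vehicle. The groups did not overlap, and the log2 fold change of 0.29 ± 0.10 did not pass (adjusted p = 0.142). Mdm4, the partner of Mdm2 in holding p53 in check, had −0.50 ± 0.14 (adjusted p = 0.0864), and Rpl5, a ribosomal protein that can bind Mdm2, had −0.34 ± 0.10 (adjusted p = 0.108). The expected counts of Sirt1, Mdm4 and Rpl5 were not whole in all 6 libraries, and those of Trp53 were not whole in 3. Without BRL replicate 1 this list had 2 that rose, Sirt1 and Trp53, and 4 that fell, Atr, Atm, Mdm4 and Rpl5. These 6 of 21 stand beside 21.2% of all genes called in either direction in that fit.

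No gene passed edgeR on all 6 libraries among the 15 tested partners and kinases downstream of GADD45, the 23 sestrin partners and mTORC1 regulators and the 17 genes of the G1 machinery. An unadjusted p under 0.05 was found for 5, 3 and 3 of them, or 33.3%, 13% and 17.6%, where 22.4% of all genes had one. DESeq2 called 0, 1 and 0, and limma-voom called 0 in each. Map2k6, a kinase that activates p38, measured 1.59, 1.83 and 2.57 CPM in the BRL libraries and 3.81, 4.20 and 5.88 CPM in the vehicle libraries (log2 fold change −1.20 ± 0.32, edgeR adjusted p = 0.0851). Sqstm1, the autophagy adaptor p62 that sestrins bind, measured 422, 383 and 352 CPM in BRL and 299.6, 273 and 259.9 CPM in vehicle (0.47 ± 0.11, adjusted p = 0.0584). Prkaa2, a catalytic subunit of AMPK, had −0.40 ± 0.13 (adjusted p = 0.129), and Depdc5, a subunit of GATOR1, had 0.33 ± 0.10 (adjusted p = 0.107). Map2k4 and Apex1 had 0.28 ± 0.09 and 0.49 ± 0.17 (adjusted p of 0.118 and 0.14). The expected counts of Sqstm1 and Apex1 were not whole in any of the 6 libraries.

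In the G1 list, Ccne1, the cyclin of CDK2, measured 79.7, 75.7 and 69.5 CPM in BRL and 63.5, 57.3 and 57.8 CPM in vehicle, without overlap (log2 fold change 0.33 ± 0.10, edgeR adjusted p = 0.108). Ccng2, the paralog of Ccng1, had −0.38 ± 0.14 (adjusted p = 0.163), and Rbl2, a relative of the retinoblastoma protein, had −0.37 ± 0.12 (adjusted p = 0.129). The expected counts of Rbl2 were not whole in any of the 6 libraries. Without BRL replicate 1, 3 genes rose and 2 fell in the GADD45 list, 2 rose and 1 fell in the sestrin list, and 2 rose and 2 fell in the G1 list, of which 16 genes were tested in that fit. Of all genes, 21.2% were called in the same fit.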

How the data were processed

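Expected counts per gene, as estimated by RSEM, stand in the sample files that the authors deposited. A fraction per gene, also deposited by the authors, adds up to 1 over a library and was taken as the RSEM fraction of transcripts, a level per length (times 1000000, TPM). Cutadapt, Bowtie, RSEM 1.17, edgeR and the build NCBIM37 are named in the submitters' processing notes. Their settings and any use of strand are not known from the sources used here. A deposited table of log2 values for 13863 genes, made by the authors, served as an alternative only. Identifiers were paired with symbols through the supplied table (88.4% matched). Groups and replicate numbers follow the sample titles.

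After rounding, these counts entered edgeR 4.0.16 in R 4.3.3. Genes were kept by filterByExpr (minimum count 10), scaled by TMM and tested with the quasi-likelihood F-test, whose model held group alone. Adjustment was by Benjamini-Hochberg over 12047 genes at 0.05. All 10 members passed this filter. Standard errors were derived as |log2 fold change| divided by √F. The test was tried on simulated counts. Counts are called whole within 0.005. DESeq2 1.42.0 and limma 3.58.1 served as alternatives. The members and lists were chosen with earlier results of these data known. Named genes are the members, the genes past the threshold and the 3 next by p in each list, and the 3 profiles nearest to Gadd45a. Between libraries of a group the chi-square per degree of freedom was 76.8 and 89.2 for BRL replicate 1 against BRL replicates 3 and 2. It was 1.69 to 4.2 for the other pairs, so none agreed within sampling noise.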

Additional observations from a re-analysis of the deposited data

How the results depend on the processing

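Without the filter on low counts 2 members were called and by DESeq2 also 2, which were Gadd45a and Gadd45g; limma-voom called 0. Whether replicate numbers pair the libraries is not known from the sources used here. Deviations from the group mean had correlations of 0.10, −0.02 and −0.02 between libraries of the same number, which cannot settle it. With a replicate block in edgeR 0 members and 213 of all genes were called, Gadd45a having adjusted p = 0.064. Leaving out a library in turn gave 0 to 6 members and 32 to 2555 of all genes, where 338 were called on all 6; in the lists the range was 0 to 10 for other p53 targets, 0 to 6 for p53 regulators, 0 to 5 for GADD45 partners, 0 to 3 for sestrin partners and 0 to 4 for the G1 machinery. All genes called numbered 592 by DESeq2, 222 with library size only and 612 without the filter. The sestrin list had 1 call by DESeq2, with upper quartile factors, without the filter and after thinning to equal depth. With a library left out, log2 fold changes ran from −0.45 to 0.10 for Ccng1, from −0.078 to 0.414 for Cdkn1a and from −0.001 to 0.372 for Mdm2, the signs turning for Ccng1 without BRL replicate 1 and for Cdkn1a and Mdm2 without BRL replicate 2. The share of Gadd45b differed by −0.05 points on all libraries and by −2.65 to 1.34 with a library left out, positive without BRL replicate 2, BRL replicate 3 or vehicle replicate 2. By CPM, which is not per length, 4 of 10 members kept their rank. Gadd45a had positive and Gadd45g negative fold changes in all 17 alternatives (0.89 to 1.26, and −1.18 to −0.63). Fits without a library have fewer samples, and otherwise the cause was not tested.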
